A study of Mus musculus with 2 samples.

Results

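Open chromatin in the aged mouse ovary was described around 10 genes at the core of the Hippo pathway: the coactivators Yap1 and Wwtr1 (the gene of TAZ), the DNA-binding factors Tead1, Tead2, Tead3 and Tead4, the kinases Lats1 and Lats2, and the inhibitors Amotl2 and Vgll4. They are 10 of the 21755 protein-coding genes analysed, with chromosome Y left out. The genes were chosen by name, and their sites were every DNase I peak and footprint in the gene body or within 50 kb of it, with gene models from GENCODE M21 on mouse build mm10 (GRCm38). These windows held 184 of the 112418 open regions found in either library.

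In DNase-seq, DNase I cuts accessible DNA in nuclei and the cut ends are sequenced, so that peaks mark open sites and footprints mark short protected stretches inside them. Whole ovary was taken from female B6CASTF1/J mice, first-generation hybrids of the C57BL/6 and CAST strains, aged 18 to 20 months. The series has 1 group with 2 libraries, labelled as biological replicates 1 and 2. They are separate biosamples listed under the same donor entry, and the sources used here do not give whether they came from the same animal. The spread between them therefore measures only these libraries. No younger ovary, other tissue or treatment belongs to the group, so every value below is a level in the old ovary, and none is a change with age. In bulk tissue a weak site in many cells and a strong site in few cells cannot be told apart.

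When the Hippo pathway is active, the kinases LATS1 and LATS2 phosphorylate YAP and TAZ, which are then held in the cytoplasm or degraded. When it is inactive, YAP and TAZ enter the nucleus, where they bind TEAD factors on DNA and switch on genes of growth and matrix such as Ccn1 and Ccn2. In the ovary the pathway is known for its part in the growth of follicles, where loss of Hippo signalling is linked to follicle activation.

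The sequences of 9 regions are shown because the results turn on them: they hold the strongest promoters of the coactivators and of Lats2, Amotl2 and Vgll4, and the distal sites with the clearest factor words. Each is the plus strand of the C57BL/6 reference (RefSeq, GRCm38.p6), which is not the CAST allele, 5′ to 3′. Capitals mark bases that lie in a footprint of both libraries. Annotated untranslated regions were left out, so several promoters are printed only on 1 side of the start, as given by their coordinates.
Yap1 promoter, chr9:8004597-8004820: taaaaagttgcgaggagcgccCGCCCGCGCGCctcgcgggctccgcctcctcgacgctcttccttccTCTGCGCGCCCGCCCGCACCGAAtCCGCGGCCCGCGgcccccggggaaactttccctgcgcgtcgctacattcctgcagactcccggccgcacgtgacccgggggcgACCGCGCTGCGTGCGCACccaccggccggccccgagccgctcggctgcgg
Wwtr1 promoter, chr3:57575911-57576040: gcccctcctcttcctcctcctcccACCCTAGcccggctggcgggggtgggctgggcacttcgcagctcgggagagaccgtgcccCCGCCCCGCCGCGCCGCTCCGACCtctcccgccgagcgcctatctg
Tead3 exonic site, chr17:28341141-28341360: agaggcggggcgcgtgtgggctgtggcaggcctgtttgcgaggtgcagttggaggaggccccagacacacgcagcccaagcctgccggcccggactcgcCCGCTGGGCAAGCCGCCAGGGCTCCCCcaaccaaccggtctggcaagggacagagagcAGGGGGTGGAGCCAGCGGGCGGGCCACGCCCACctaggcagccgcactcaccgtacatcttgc
Lats2 internal promoter, chr14:57746124-57746260: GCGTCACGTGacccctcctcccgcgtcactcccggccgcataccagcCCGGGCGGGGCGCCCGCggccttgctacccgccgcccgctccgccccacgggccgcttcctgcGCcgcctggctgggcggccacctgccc
Amotl2 promoter, chr9:102717531-102717667: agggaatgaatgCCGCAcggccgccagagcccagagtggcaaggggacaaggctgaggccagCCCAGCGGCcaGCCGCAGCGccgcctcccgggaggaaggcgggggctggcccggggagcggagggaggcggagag
Amotl2 distal site, chr9:102779601-102779840: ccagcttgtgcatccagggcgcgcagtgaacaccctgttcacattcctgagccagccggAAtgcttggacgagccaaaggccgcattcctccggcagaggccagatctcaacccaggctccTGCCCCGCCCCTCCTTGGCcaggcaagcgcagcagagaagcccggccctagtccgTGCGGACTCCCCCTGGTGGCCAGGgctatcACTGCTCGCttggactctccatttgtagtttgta
Vgll4 internal promoter, chr6:114875041-114875260: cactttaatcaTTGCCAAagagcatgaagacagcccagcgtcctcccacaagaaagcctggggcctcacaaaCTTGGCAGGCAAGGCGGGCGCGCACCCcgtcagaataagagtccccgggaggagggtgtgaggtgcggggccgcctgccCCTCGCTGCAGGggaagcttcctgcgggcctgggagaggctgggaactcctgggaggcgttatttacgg
Vgll4 intronic site A, chr6:114893881-114894140: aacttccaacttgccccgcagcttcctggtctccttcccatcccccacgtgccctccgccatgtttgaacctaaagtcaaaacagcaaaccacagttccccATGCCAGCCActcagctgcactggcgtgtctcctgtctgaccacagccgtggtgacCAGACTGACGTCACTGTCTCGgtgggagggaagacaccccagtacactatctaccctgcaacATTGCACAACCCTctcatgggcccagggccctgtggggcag
Vgll4 intronic site B, chr6:114889001-114889280: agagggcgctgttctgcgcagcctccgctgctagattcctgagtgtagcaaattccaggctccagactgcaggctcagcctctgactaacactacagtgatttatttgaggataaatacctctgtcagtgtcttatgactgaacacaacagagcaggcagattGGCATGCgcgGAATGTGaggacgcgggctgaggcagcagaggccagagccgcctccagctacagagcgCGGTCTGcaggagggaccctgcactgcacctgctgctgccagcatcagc

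Replicate 1 had 95898 peaks and 181762 footprints, and replicate 2 had 83982 peaks and 200993 footprints. Peak strength is the authors' signal, scaled for read depth to a target that is not stated. It moves in smallest steps of 0.0108 in replicate 1 and 0.00781 in replicate 2, and the absolute depth is unknown. A region is called shared when peaks of both libraries overlap by at least 1 bp, and 64875 regions were shared. Of 25 markers of the cells an ovary holds, 16 (64%) had a promoter peak in both libraries, close to the share of all genes given below. They were 3 of 4 granulosa markers and 3 of 3 theca markers, as did 3 of 3 stromal and 3 of 3 smooth muscle markers. The same held for 2 of 3 surface epithelium markers, 1 of 3 endothelial markers, 1 of 3 oocyte markers and 0 of 3 macrophage and leukocyte markers. The oocyte marker was Gdf9, at percentiles 92.5 and 96.4 among open genes, while neither library had a peak at the promoters of Zp3 and Nobox. A promoter peak can also cover a start of another gene, as at Lats1 below, and the markers were not checked for this. A marker without a promoter peak could have shared regions elsewhere. Pecam1 had 13 that lay over 2 kb from any protein-coding start and nearest to its own, and Zp3 had 0. Some open markers were among the weakest open genes, such as Dcn at percentiles 1.23 and 3.53 and Des at 4.44 and 6.56.

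All 10 genes were open at a promoter, meaning that a peak of each library lay within 500 bp of an annotated transcription start. Across all protein-coding genes 62.3% were open in this way. The strongest promoter peaks left a gap that split the genes into a higher and a lower group. Wwtr1, Tead1, Vgll4, Amotl2, Yap1 and Lats2 had signals of 4.14 or more in each library, and Lats1, Tead3, Tead4 and Tead2 had signals of 2.58 or less. This split depends on the choice of start. With the annotated 5′ end as the only start, Vgll4 had a mean of 1.12, and Lats2 and Amotl2 had no promoter peak in both libraries. The median over the 10 genes was 4.38 in replicate 1 and 4.59 in replicate 2, beside 3.96 and 4.06 over all genes open in both libraries, and 6 of 10 lay above the all-gene median of each replicate.

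**Figure D1:**
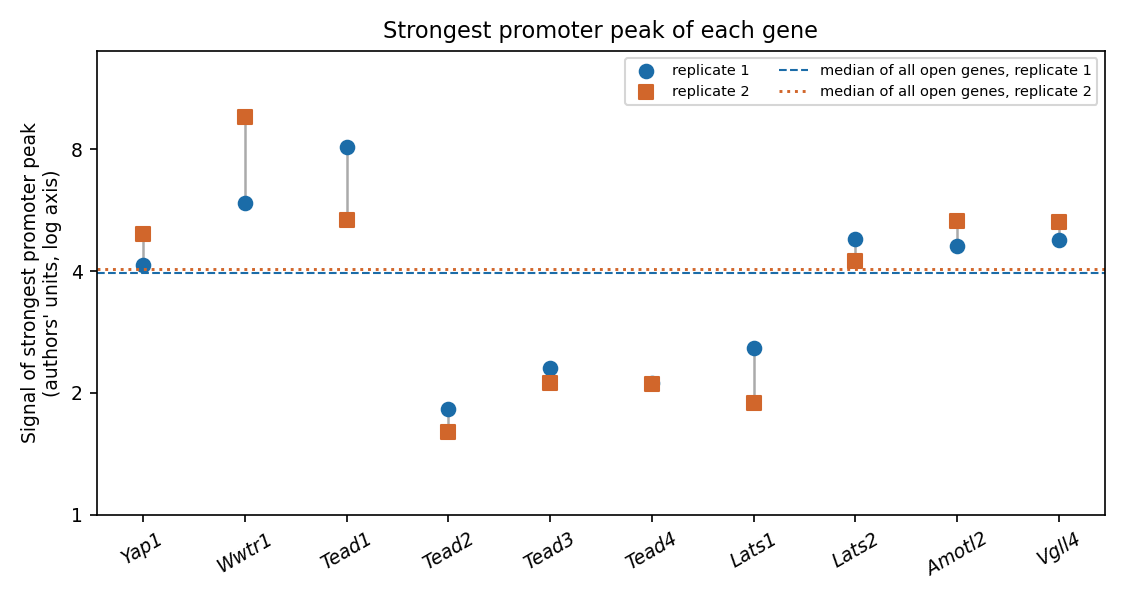
Signal of the strongest promoter peak of each gene (y axis, authors' units, log axis) in replicate 1 (circles) and replicate 2 (squares), with dashed and dotted lines at the medians of all open genes. Wwtr1 reaches 9.59 and Tead1 8.08 in a single replicate, and Lats1, Tead2, Tead3 and Tead4 sit below both medians in both replicates.

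YAP and TAZ, which carry the pathway's output into the nucleus, differed in promoter strength, with Yap1 near the all-gene median and Wwtr1 above it. Yap1 had signals of 4.14 and 4.94 in replicates 1 and 2, with a mean of 4.54 ± 0.562 (SD, n = 2). Wwtr1 had 5.90 and 9.59, a mean of 7.74 ± 2.61 (SD, n = 2), the highest mean of the 10. The 2 genes did not overlap in signal, although the gap between the Wwtr1 libraries was larger than the distance between the genes in replicate 1. Among all open genes, Yap1 stood at percentiles 52.1 and 57.3 and Wwtr1 at percentiles 68.6 and 82.0.

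Both peaks lay on the annotated 5′ end of the gene, and both were dense in footprints. The Yap1 peak, chr9:8004521-8004820, held 6 footprints in replicate 1 and 7 in replicate 2, with 6 overlaps between footprints of the libraries. The Wwtr1 peak, chr3:57575741-57576040, held 6 and 5 footprints, with 6 overlaps. A GC-box word (GGGGCGGGG, read on the minus strand as CCCCGCCCC), bound by SP and KLF factors, lay at positions 83 to 91 of the printed Wwtr1 sequence, inside a footprint of both libraries, counted here and below by the centre of the match. In the printed Yap1 sequence the E-box CACGTG at positions 158 to 163 lay inside a footprint of replicate 2 only.

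Away from the promoters the coactivator genes had several sites of modest signal. Yap1 had 9 shared regions in its window of 172.6 kb, and 3 of them were distal sites of its own, meaning that they lay over 2 kb from any protein-coding start and were nearest to a start of the member. Over all genes the median number of such sites was 0 and the upper quartile 2. These 3 sat side by side in an intron, between 42.6 and 45.1 kb from the 5′ end, with signals from 0.538 to 0.990 in replicate 1 and from 0.578 to 0.852 in replicate 2. One of them, chr9:7961901-7962080, held a CTCF word (CAGNGGGC) in a footprint of both libraries. The strongest peak in the Yap1 window belonged to the promoter of Cfap300, at 6.78 and 8.16.

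Wwtr1 had 15 shared regions in 220.3 kb, of which 4 were distal sites of its own. Their signals were at most 1.22 in replicate 1 and 0.985 in replicate 2, and the strongest, chr3:57512281-57512480, lay 63.3 kb from the nearest Wwtr1 start. A further 4 shared regions lay inside the Wwtr1 gene body but nearer to the start of its neighbour Tm4sf4, with signals between 0.958 and 1.42 in replicate 1 and between 0.828 and 1.15 in replicate 2. Counting by the nearest start thus gives part of the Wwtr1 introns to another gene.

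**Figure D2:**
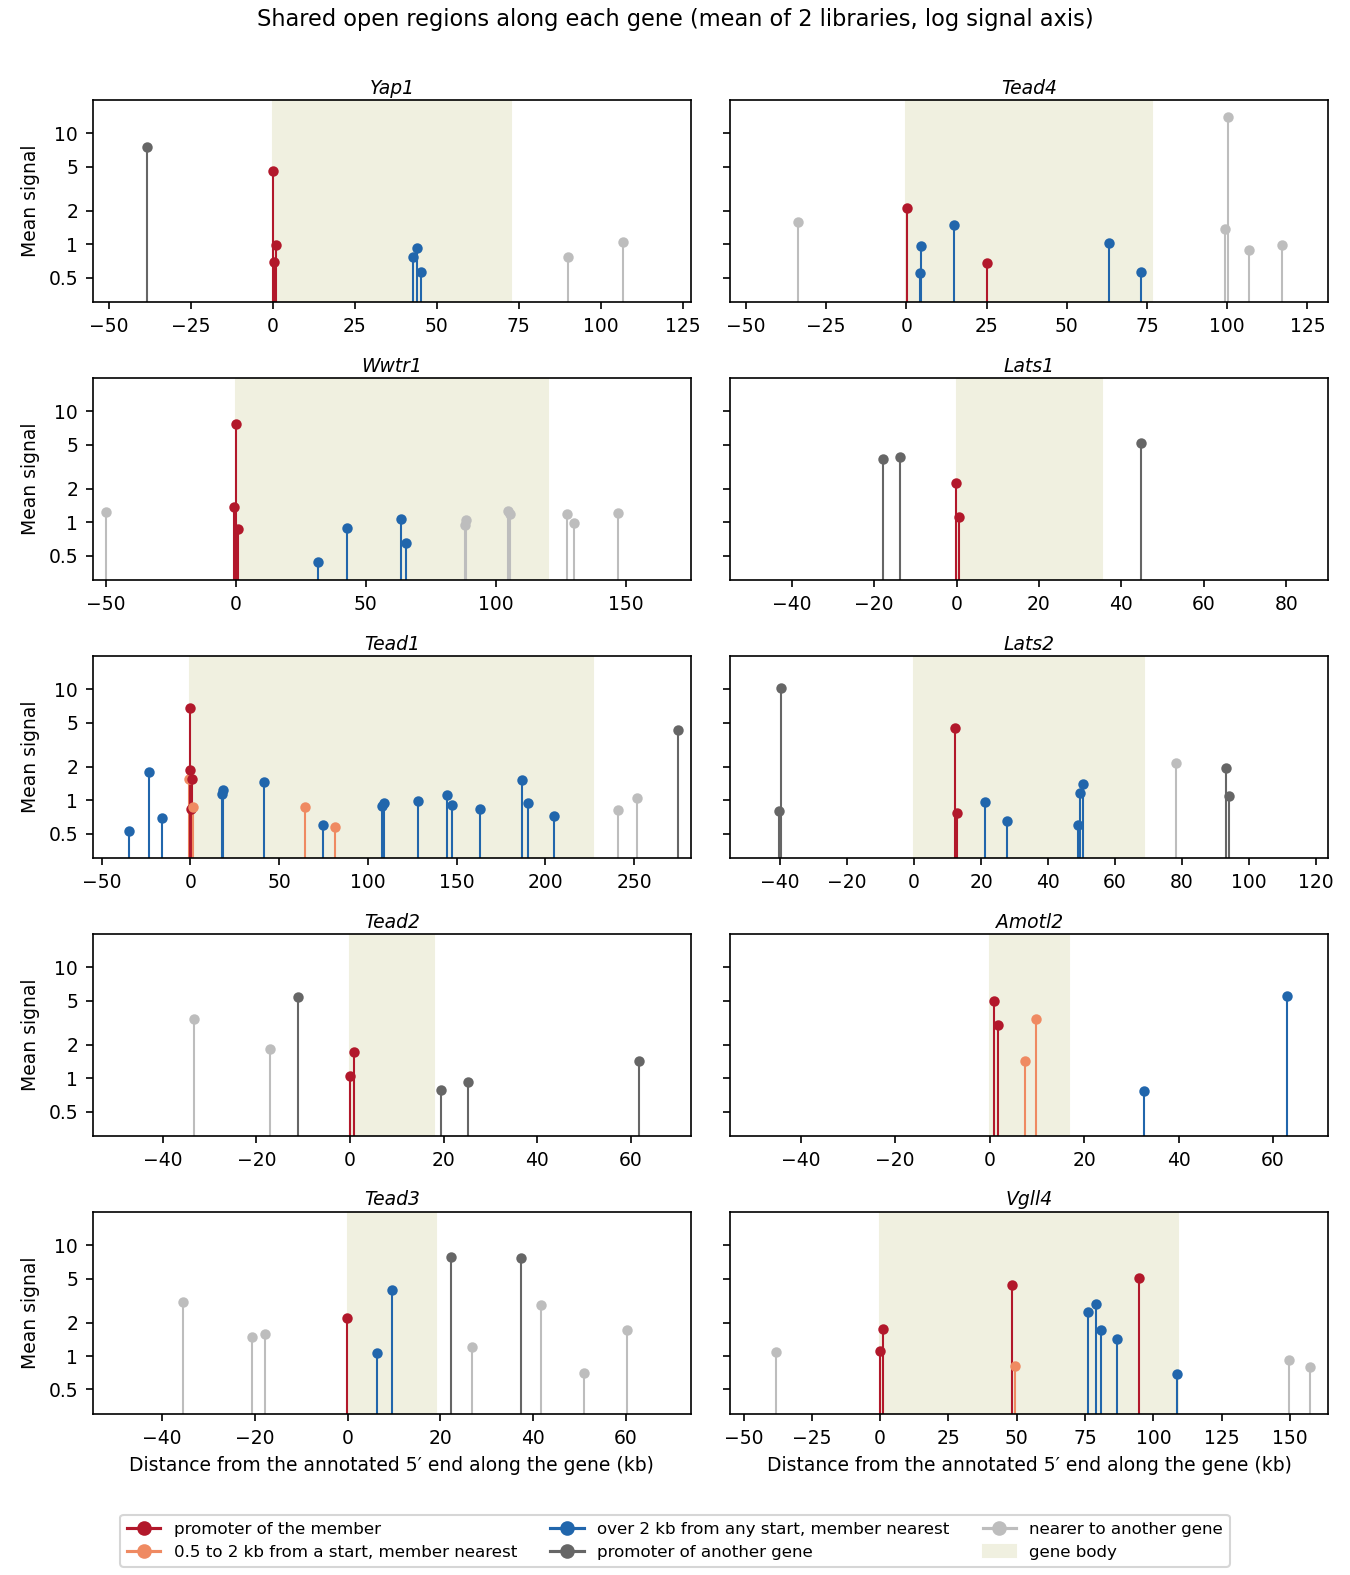
Mean signal of each shared region (y axis, authors' units, log axis) against its distance from the annotated 5′ end along the gene (x axis, kb), with the gene body shaded and colours for promoters, sites nearest to the member and sites of other genes. The strongest promoters of Lats2 and Vgll4 stand 12.3 and 94.9 kb inside the gene, and the tallest stem in the Tead4 panel, of mean signal over 10, lies nearest to Tspan9.

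The 4 TEAD genes encode the DNA-binding partners of YAP and TAZ, and they were unequal. Tead1 had promoter signals of 8.08 and 5.34, a mean of 6.71 ± 1.94 (SD, n = 2), at percentiles 83.6 and 60.5 of all open genes. Tead3 had 2.30 and 2.11, Tead4 had 2.12 and 2.10, and Tead2 had 1.83 and 1.60. The lowest Tead1 library was above the highest value of any other TEAD gene. Tead3 and Tead4 differed by less than the Tead3 libraries did from each other, and all 3 weaker TEAD promoters stood between percentiles 21.8 and 30.2.

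The Tead1 promoter peak lay on the annotated 5′ end and held 5 footprints in each library. The other 3 shared promoter peaks of Tead1 were weaker, the highest of them at 1.67 and 2.05.

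Tead1 also had the most sites of its own. Its window of 327.5 kb held 27 shared regions, and 16 of them were distal sites nearest to Tead1, 13 inside the gene and 3 upstream. None was strong: the highest were an upstream site at 1.66 and 1.93, chr7:112656141-112656360, and intronic sites at 1.84 and 1.22 and at 1.59 and 1.32. The intronic site at chr7:112865841-112866020 held a CTCF word in a footprint of both libraries. The window also held 19 regions found in only 1 library, 6 in replicate 1 and 13 in replicate 2.

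Tead2, Tead3 and Tead4 differed in how many neighbours they had. Tead2, a gene of 17.9 kb, had 8 other protein-coding genes in its window and 0 distal sites of its own, and its stronger promoter peak covered a start 0.920 kb inside the gene, while the peak at the annotated 5′ end had 0.990 and 1.09. Tead3, of 19.1 kb, had 12 shared regions, of which 2 were its own distal sites. The stronger of these was a site in an exon at chr17:28341141-28341360, with 3.62 and 4.20, above the promoter of the same gene in both libraries. The printed sequence of this site held 2 CTCF words, at positions 98 to 105 on the minus strand and 170 to 177 on the plus strand, and both lay inside footprints of both libraries.

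Tead4 had 5 distal sites of its own among 12 shared regions. The strongest, in an intron at chr6:128285841-128286060, had 1.44 and 1.52, and the next, at chr6:128237481-128237660, had 1.25 and 0.813. At the Tead4 promoter, chr6:128300421-128300680, GGAATG matched 3 times within a short stretch, starting at 128300457, 128300466 and 128300478 on the plus strand, and 0 of the 3 lay inside a footprint of either library.

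LATS1 and LATS2, the kinases that inhibit YAP and TAZ, differed in promoter strength and position. Lats1 had 2.58 and 1.89, a mean of 2.24 ± 0.489 (SD, n = 2), in a peak on its 5′ end that also covers an annotated start of Pcmt1. Lats2 had 4.80 and 4.24, a mean of 4.52 ± 0.399 (SD, n = 2), and the libraries of the 2 genes did not overlap. The Lats2 peak did not lie on the annotated 5′ end but on a start 12.3 kb inside the gene, and it also covers a start of Gm49361, so its signal cannot be assigned to Lats2 alone. An E-box CACGTG lay at positions 5 to 10 of the printed Lats2 sequence, inside a footprint of both libraries.

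Distal sites were also unequal between the kinases. All 5 shared regions of the Lats1 window were promoters, 2 of Lats1 and 3 of its neighbours, and the strongest was that of Katna1 at 4.51 and 5.85. Lats2 had 12 shared regions and 5 distal sites of its own, all in introns. The highest of them, chr14:57707721-57707920, had 1.25 and 1.56, and the next, chr14:57708681-57708880, had 1.19 and 1.11. In the same window the promoter of Sap18 had 8.49 and 11.9.

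AMOTL2, an angiomotin-like protein, holds YAP at cell junctions, and its gene is itself a target of YAP and TEAD. Its strongest promoter peak had 4.61 and 5.33, a mean of 4.97 ± 0.511 (SD, n = 2), and covered a start 0.996 kb inside the gene. A promoter peak just downstream, chr9:102718301-102718500, had 3.41 and 2.64 and carried the cAMP response element TGACGTCA, the word bound by CREB and ATF factors, in a footprint of both libraries. No peak of both libraries lay at the annotated 5′ end.

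The Amotl2 window held the strongest distal site of any of the 10 genes, chr9:102779601-102779840, in intergenic sequence 63.0 kb from the 5′ end and 48.9 kb from the nearest Amotl2 start. Its signals were 5.11 and 5.94, a mean of 5.53 ± 0.585 (SD, n = 2), above the Amotl2 promoter in both libraries. The printed sequence held GGAATG 3 times, at positions 42 to 47 and 84 to 89 on the minus strand and at 58 to 63 on the plus strand. The middle match had its centre inside a footprint of both libraries, but only its letters AA lay in both, and the outer matches lay in none. A GC-box word at positions 124 to 132 of the same site also lay inside a footprint of both. The longest stretch in capitals came after the GC-box word, and none of the words sought here matched in it. These words therefore leave the main shared footprint of the site undescribed. Matches with a mismatch, to the CTCF word or any other, were not sought. Within the gene, an intronic site 9.79 kb from the 5′ end had 2.86 and 3.92.

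VGLL4 competes with YAP for TEAD factors. Its gene was open at 3 places along its 109 kb that carry annotated starts, and the strongest was the farthest from the 5′ end. The peak on the start of transcript Vgll4-205, 94.9 kb inside the gene, had 4.78 and 5.30, and a peak at another internal start, chr6:114921761-114922000, had 3.66 and 5.06. The peaks near the annotated 5′ end had 1.05 and 1.19 and, 0.953 kb inside, 1.65 and 1.85. Both internal promoters were thus above the 5′ end in both libraries, with no overlap.

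Vgll4 had 5 distal sites of its own, and 4 of them sat in introns between 76.0 and 86.6 kb from the 5′ end, close to the strongest promoter. The strongest, chr6:114890821-114891040, had 3.39 and 2.56. Intronic site A, with 2.34 and 2.63, carried TGACGTCA at positions 163 to 170 of its printed sequence, inside a footprint of both libraries. The site at chr6:114883301-114883500, with 1.39 and 1.46, carried the same word, also in a footprint of both. Intronic site B, with 1.81 and 1.59, carried GGAATG at positions 173 to 178 directly after an NRF1 word (GCGCATGC, here on the minus strand at positions 165 to 172), and footprints of both libraries covered the centre of each.

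The position of the strongest promoter peak set several of these genes apart from their annotated 5′ ends. In 4 of 10, Tead2, Lats2, Amotl2 and Vgll4, it lay more than 500 bp from the 5′ end in both libraries. Of all genes open in both libraries, 13.3% had such a peak. Only a gene with a further start away from its 5′ end can have one, and these genes have 16, 8, 13 and 7 annotated starts, in that order. The share over all genes was not matched for the number of starts. With the annotated 5′ end as the only start, 8 of the 10 genes were open and the median of their mean signals was 2.22 in place of 4.53, so that the choice of start moves the level by over 1.5 times.

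**Figure D3:**
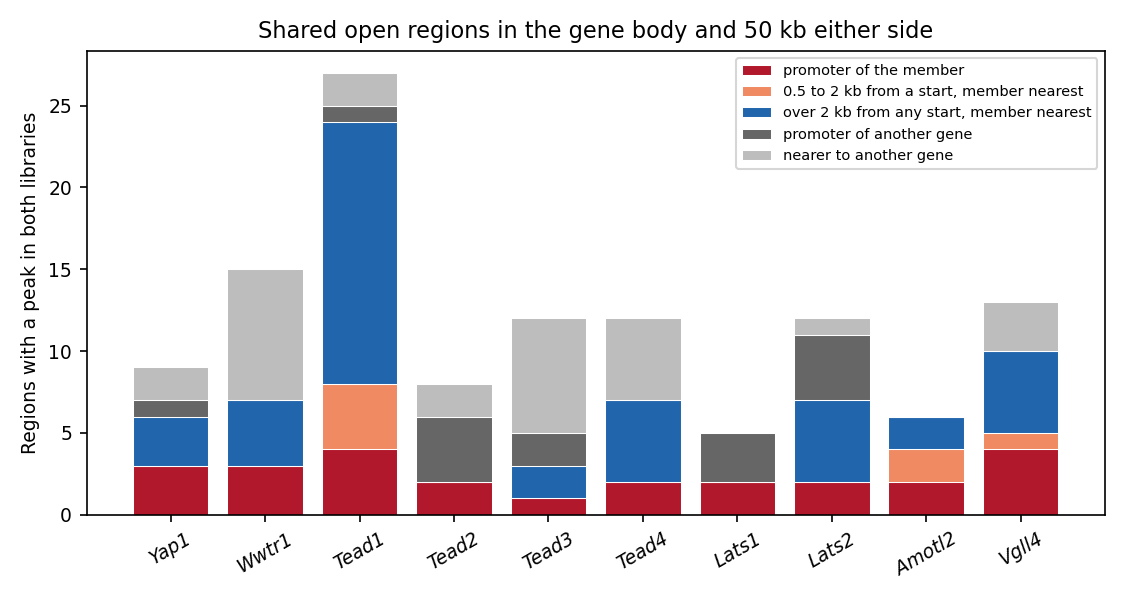
Number of regions with a peak in both libraries (y axis) in and within 50 kb of each gene, stacked by whether a region is a promoter or a distal site and whether it belongs to the member or to another gene. Tead1 has 27 regions, 16 of them its own distal sites, and Lats1 has 5, all of them promoters.

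In all, 119 of the 184 regions (64.7%) were shared, beside 57.7% of all regions. Of these, 25 were promoters of the members, 42 their own distal sites and 7 sites between 500 bp and 2 kb from a start, while 15 were promoters of other genes and 30 lay nearer to another gene. The members' own distal sites were 33 in introns, 4 in exons and 5 in intergenic sequence, at a median of 14.9 kb from the nearest start of the member and at most 65.3 kb. At least 5 of them were counted in 4 of 10 genes, Tead1, Tead4, Lats2 and Vgll4, beside 8.71% of all genes. This count grows with the length of the gene, since the window does, and it was 1 of 10 with the shorter peak lists or with peaks that overlap by 50%, and 7 of 10 with replicate 2 alone. Per 100 kb of window, the median of the 10 genes was 6.79 shared regions, beside 4.47 over all genes, and 9 of 10 lay above that median, Lats1 with 3.70 being the exception. An open promoter adds to this density, and all 10 genes have one, beside 62.3% of all genes. Regions of other genes in the window add to it too. A comparison with open genes alone was not made.

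Own distal sites were weaker than own promoters in both libraries. Their median signal was 0.963 in replicate 1 and 0.938 in replicate 2, beside 1.67 and 1.85 for the 25 own promoter regions. The distal sites of Amotl2, Tead3 and Vgll4 named above, with mean signals up to 5.53, stood apart from this median. Base composition differed too: the median GC content in 300 bp was 67.3% at own promoters and 51.5% at own distal sites, and the median ratio of observed to expected CpG was 0.812 and 0.26.

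**Figure D4:**
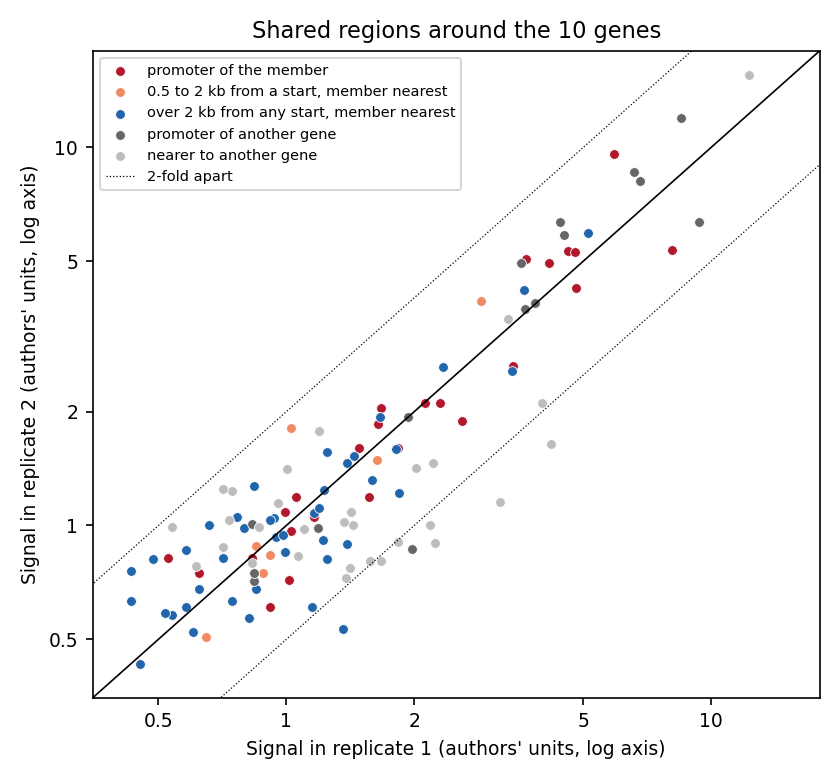
Signal of each of the 119 shared regions in replicate 1 (x axis) and replicate 2 (y axis), in authors' units on log axes, coloured by class, with a solid line of equality and dotted lines 2-fold from it. The points follow the line over the whole range, and the log2 ratio of replicate 2 to replicate 1 has an SD of 0.52.

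The replicates gave like signals around these genes. Over the 119 shared regions, the log2 ratio of replicate 2 to 1 had median -0.01 and SD 0.52, beside -0.03 and 0.56 over all shared regions, and 7 regions lay more than 2-fold from the latter median. Of the footprints in the shared regions, 62.2% of the 291 in replicate 1 overlapped a footprint of replicate 2, and 51% of the 351 in replicate 2 overlapped 1 of replicate 1. Over all shared regions these shares were 57.9% and 50.9%. A footprint was present in both libraries in 96 of the 119 regions (80.7%), beside 77.4% of all shared regions.

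TEAD factors bind the word GGAATG, and it was sought on both strands to describe how often the genes of the TEAD partners carry it themselves. In the 300 bp of the strongest promoter region it was present in 6 of 10 genes, among them Yap1, Tead3, Tead4, Lats2 and Amotl2, beside 10% of the 13493 genes with such a region. Over the windows, 8 of 40 promoter regions (20.0%) held it, beside 10.8% of all promoter regions, and 16 of 79 other regions (20.3%) held it, beside 18.6% of all other regions. Promoter regions of the same gene can repeat a member, and the share at other regions was close to the background. A match is a description of the letters and does not show that a TEAD factor is bound.

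Few promoter matches had a footprint, as was the case over all promoter regions. The promoter regions of 8 members held 16 matches, of which 2 had their centre in a footprint of either library, 1 of them at Lats2, and 0 in a footprint of both. By library, footprints covered 12.5% of the 16 matches in replicate 1 and 0 in replicate 2. Over all promoter regions footprints covered 10.6% of the matches in replicate 1 and 12.4% in replicate 2, and footprints of both libraries covered 6.42%. The own distal sites of 5 members held 12 matches, of which 5 lay in a footprint of either library and 2 in both, those of Amotl2 and of Vgll4 site B. At the 79 regions that were no promoters, footprints of replicate 1 covered 4 of 17 matches (23.5%), beside 7.37% over all such regions. Footprints of replicate 2 also covered 4 (23.5%), beside 8.52%, and 2 of the 17 matches lay in footprints of both. The longer TEAD word ACATTCCA was present in 2.5% of the promoter regions and 3.8% of the others, or 1 and 3 regions, beside 0.67% and 1.91% over all.

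The share of matches covered by footprints of both libraries varied with the word, from 0 of 12 for the AP-1 word TGANTCA and 2 of 33 for GGAATG to 5 of 5 for TGACGTCA. Over all shared regions this share was 3.67% at promoters and 3.68% elsewhere for the AP-1 word, and 6.42% and 2.82% for GGAATG. The low counts of these words were thus near the shares of all regions. TGACGTCA matched 5 times in the shared regions, among them 1 time at Amotl2 and 2 times at Vgll4, and all 5 matches lay in footprints of both libraries. The word was present in 5% of the promoter regions in the windows and 2.53% of the other regions, or 2 regions each. Over all shared regions these shares were 2.74% and 0.563%. There, footprints of both libraries covered 72% of the promoter matches and 38.3% of the others. The CTCF word matched 18 times, and 10 matches, in the windows of Yap1, Wwtr1, Tead1, Tead2, Tead3 and Vgll4, lay in footprints of both. Of these, 9 were among the 15 matches outside promoters (60%), beside 35.9% over all such regions, and 1 was among the 3 at promoters, beside 30.5%. The NRF1 word matched 10 times, 7 of 8 matches at promoters (87.5%) lying in footprints of both, beside 77.2% over all, and 1 of 2 elsewhere, beside 45%, and 1 of the 10 was at a region of a member's own.

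The other genes of the pathway were mostly open as well. Of 48 genes in 4 lists, 43 (89.6%) had a promoter peak in both libraries, beside 62.3% of all protein-coding genes. The same share of all genes stands beside the count of each list below. All 14 upstream kinases and scaffolds were open, at median percentiles of 72.3 and 77.9 among open genes. The strongest were Taok3, a kinase that activates MST1 and MST2, at 12.4 and 14.7, Nf2, the gene of the scaffold merlin, at 10 and 13.5, and the kinase gene Taok2 at 8.81 and 16.6. Each was above every one of the 10 genes in replicate 1 and in replicate 2.

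Among polarity, junction and LIM regulators, 10 of 12 were open, led by the polarity gene Mpp5 at 6.79 and 10.4, the protocadherin gene Fat1 at 5.45 and 5.85 and the LIM protein gene Ajuba at 5.34 and 4.48. Dchs1, which encodes a cadherin that pairs with FAT4, had no promoter peak in either library, and Fat4 had one in replicate 2 only, at 0.414. Of the TEAD cofactor genes other than Vgll4, Vgll3 had 1.49 and 2.32, Vgll2 had 0.635 and 0.438, and Vgll1 had no promoter peak.

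A set of YAP and TAZ targets drawn from tumours, without its members Amotl2 and Lats2, has 20 genes, of which 18 were open, at median percentiles of 26.8 and 28.5. The strongest were Gadd45a, a gene of the response to DNA damage, at 8.41 and 12.6, Arhgef17, the gene of a guanine nucleotide exchange factor, at 4.65 and 6.59, and Asap1, an ARF GTPase-activating protein gene, at 3.39 and 4.59. Ankrd1 and Foxf2 had no promoter peak in either library. Ptpn14 stands in 2 of the lists and was counted under both.

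**Figure D5:**
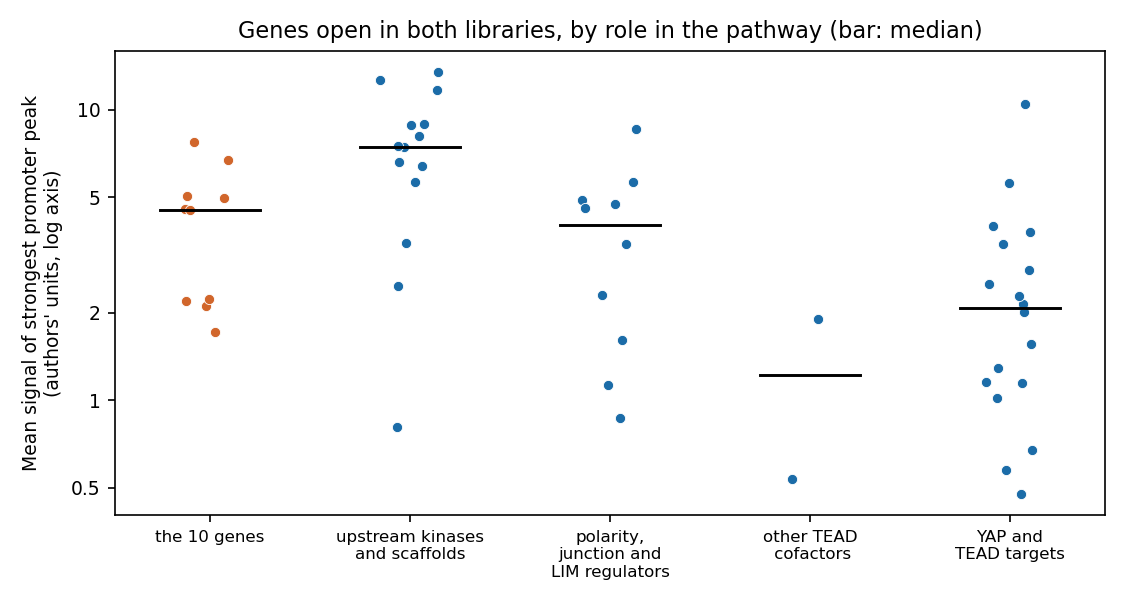
Mean signal over both libraries of the strongest promoter peak (y axis, authors' units, log axis) of each gene open in both, for the 10 genes and 4 pathway lists, with a bar at the median and points spread sideways for visibility. The upstream kinases and scaffolds reach 13.5 for Taok3, and most target genes lie below 4.53, the median of the 10 genes.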

How the data were processed

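DNase-seq was analysed for 2 libraries of 1 group. Per the deposited text files, the peaks, footprints and false discovery rates of a library came from its own alignments on mm10, without pooling. Not given in the sources used here are the aligner, the peak caller, their versions and the mapping of CAST alleles. Peak strength, as deposited, is a signal scaled by the authors for read depth and used here to describe and rank peaks. The deposited footprints carry a constant p-value of 0.01, whose kind is not stated, and false discovery rates were deposited only below 0.05.

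The longer peak list of each library was used, and the shorter one as an alternative. Peaks that overlapped by at least 1 bp were joined into regions, and a region belonged to a window if its midpoint lay in it. The promoter signal of a gene was that of its strongest peak within 500 bp of any GENCODE M21 start, and its percentile was taken among genes open in both libraries. Density is shared regions per 100 kb. Words were sought without mismatch on both strands in the 300 bp about a region's midpoint for shares of regions, and in the whole region for matches, and a match was in a footprint when its centre was. Some of the words overlap one another. Python 3.11.15, NumPy 2.4.6, pysam 0.24.0 and Matplotlib 3.10.9 were used, and the scripts were tested on simulated data.

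With 2 libraries no test was made, so values are descriptions with each library's value and an SD. The rule for naming took in all 10 members and the 3 strongest own distal sites of each. It also took in the 3 strongest genes of each pathway list and its genes without a peak. Neighbours with the strongest promoter of a window or a shared start were taken in too. Not every distal site that the rule takes in is named above. Sites and genes outside this rule, such as further promoters of a member and the words they carry, Fat4, Vgll4 site chr6:114883301-114883500 and the regions near Tm4sf4, were chosen after their values were seen. A sequence that the rule takes in is not reported here. The members and the lists were chosen with earlier results of these data known. Alternatives were the shorter lists, a reciprocal overlap of 50%, windows of 10 and 100 kb, promoters of 2000 bp, the annotated 5′ end as the only start, another TEAD word and each library left out.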

Additional observations from a re-analysis of the deposited data

How the results depend on the processing

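The 10 members were open at a promoter under every alternative but the annotated 5′ end as the only start, which gave 8, and the 43 open pathway genes became between 38 and 44. The median promoter signal of 4.53 became 2.22 with that start and ranged from 4.38 to 4.59 with a library left out. The 119 shared regions became 179 with windows of 100 kb and 81 with windows of 10 kb. They became 86 with the shorter lists and 105 with 50% overlap, and ranged from 150 to 156 with a library left out. The median density of 6.79 per 100 kb became 4.68 with the shorter lists, 6.02 with 50% overlap, 8.75 with windows of 10 kb and 5.75 with windows of 100 kb, and ranged from 8.07 to 8.61 with a library left out. The 4 members with at least 5 own distal sites became 1 with the shorter lists and 1 with 50% overlap, and from 5 to 7 with a library left out. The share of regions with the TEAD word, 20.2%, became 3.36% with ACATTCCA and ranged from 17.3% to 18.6% with a library left out. The footprint overlap of 56.6% became 39.6% with 50% reciprocal overlap. With the annotated 5′ end as the only start, Lats2 and Amotl2 had no promoter peak in both libraries, and the mean signals of Tead2 and Vgll4 became 1.04 and 1.12. Of 60 counts of shared regions of single members under the alternatives, 46 stayed within 1.5 times.

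No paired analysis was possible because there is only 1 group. Footprint overlap without a library was not run, since it needs both. The absolute depth is unknown, so a site without a peak was not detected at this depth, which is not the same as closed. With 2 libraries an SD is imprecise.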

Other observations

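The strongest open region in any of the 10 windows belonged to no member. It lay 100 kb from the Tead4 5′ end, at chr6:128200601-128200860 in intergenic sequence, 57.0 kb from its nearest start, that of the tetraspanin gene Tspan9. Its signals were 12.3 in replicate 1 and 15.6 in replicate 2, above every promoter of the 10 genes in both libraries. It held 6 and 4 footprints. A CTCF word and an E-box CACGTG matched in it, and neither had its centre in a footprint.

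Of the 65 regions seen in only 1 library, 30 were in replicate 1 and 35 in replicate 2. Their median signals were 0.694 and 0.555, and the highest were 1.37 and 1.12. In 12 of the 65, the other library also had a base with a false discovery rate below 0.05, although its longer peak list had no peak there. Amotl2 had 10 of them beside 6 shared regions, and Tead1 had 19 beside 27.

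At the 43 open pathway genes outside the members, 9 (20.9%) held GGAATG in the 300 bp of the strongest promoter region, beside 10% of all genes with such a region. Their promoter regions held 17 matches, of which 2 lay in a footprint of either library and 1 in a footprint of both. The latter was at Wtip, whose LIM protein binds LATS kinases. Ccn1 and Ccn2, the best known targets, held 2 matches each, at chr10:24595402-24595407 and chr10:24595411-24595416 for Ccn2, and 0 of these 4 lay in a footprint. Their promoter signals were 2.22 and 2.06 for Ccn1 and 1.92 and 2.12 for Ccn2.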
